A study of Caenorhabditis elegans with 2 samples.

Results

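Peaks whose summit lies in the promoters of 2 or more protein-coding genes at once made up 236 of the 542 reproducible binding peaks of eGFP-tagged R02D3.7 in Caenorhabditis elegans larvae. Reproducible peaks are those the authors kept by the irreproducible discovery rate (IDR), a measure of how well peaks recur between replicates. The set is drawn from the joined reads of both replicates, and 528 of its 542 peaks had a matched region in replicate 2. A peak in it was thus not always found in both replicates. A peak was counted when its summit lay from 1000 bp upstream to 200 bp downstream of an annotated 5′ end of at least 2 different protein-coding genes. Of the other peaks, 218 lay in the promoter window of 1 gene and 88 lay outside all such windows. The 236 shared peaks held 485 gene and peak pairs, from 483 different genes: 223 peaks reached 2 genes and 13 reached 3.

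The measurement was chromatin immunoprecipitation followed by sequencing (ChIP-seq), which enriches DNA bound by a protein and maps it. The animals were whole L2 larvae, mixed sex and pooled, of strain OP218, which carries the unc-119(ed3) III allele and the integrated transgene wgIs218 that makes the tagged protein. There was 1 group with 2 biological replicates and no untreated or untagged group, so no comparison between conditions was possible, and binding in whole larvae gives no cell type. R02D3.7 is annotated as rcat-1, and none of the 30000 candidate regions called on the joined reads had its summit in the promoter window of rcat-1 itself.

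Neighbouring genes that point away from each other share the DNA between their 5′ ends, and such a stretch can serve as promoter for both. Genes on the same strand can also lie close together, and in C. elegans many of these are transcribed as one operon and separated by trans-splicing of a short leader. Trans-splicing also removes the true start of many messages, so that an annotated 5′ end is often the splice site and transcription begins somewhere upstream of it.

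The DNA between divergent genes at the strongest shared peaks is shown because it is what the later counts of letters and distances refer to. These stretches come from 7 of the 8 strongest divergent peaks, on ce11 (the RefSeq copy of WBcel235), read 5′ to 3′ on the plus strand and without bases of annotated exons. Capitals mark CGTAAATC and its shorter part CGTAAA, together with ACGCGC as well as GACGCA, on either strand. The first gene named lies on the minus strand to the left and the second on the plus strand to the right.
rpl-20 and Y17G9B.5, chrIV:4749993-4750143: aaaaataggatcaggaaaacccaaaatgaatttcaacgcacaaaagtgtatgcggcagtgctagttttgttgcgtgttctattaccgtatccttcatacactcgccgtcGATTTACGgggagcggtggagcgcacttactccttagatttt
ubq-2 and frg-1, chrIII:12978932-12979082: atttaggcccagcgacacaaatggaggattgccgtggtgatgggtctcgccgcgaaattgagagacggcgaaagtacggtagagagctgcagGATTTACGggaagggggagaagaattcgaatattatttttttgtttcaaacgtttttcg
hat-1 and M03C11.3, chrIII:10407377-10407527: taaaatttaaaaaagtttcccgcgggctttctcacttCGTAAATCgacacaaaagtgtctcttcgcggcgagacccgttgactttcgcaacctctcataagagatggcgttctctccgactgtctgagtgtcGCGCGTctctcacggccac
hmgs-1 and F25B4.4, chrV:5684590-5684872: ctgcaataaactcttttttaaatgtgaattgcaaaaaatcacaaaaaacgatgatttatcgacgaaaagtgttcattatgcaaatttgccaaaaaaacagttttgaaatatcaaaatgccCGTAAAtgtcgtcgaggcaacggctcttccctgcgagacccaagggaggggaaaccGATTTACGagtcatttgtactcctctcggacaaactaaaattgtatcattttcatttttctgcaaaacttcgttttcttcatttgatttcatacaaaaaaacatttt
T23F6.3 and rbd-1, chrIV:12724761-12724985: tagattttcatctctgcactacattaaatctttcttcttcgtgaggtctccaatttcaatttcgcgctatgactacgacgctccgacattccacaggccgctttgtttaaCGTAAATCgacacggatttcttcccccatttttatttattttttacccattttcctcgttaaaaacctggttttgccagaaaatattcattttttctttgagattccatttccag
cic-1 and strm-1, chrIII:2401244-2401394: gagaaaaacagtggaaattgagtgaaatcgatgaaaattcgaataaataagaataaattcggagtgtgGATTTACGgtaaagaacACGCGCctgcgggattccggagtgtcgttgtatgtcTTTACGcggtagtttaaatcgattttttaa
rps-0 and rbg-3, chrIII:4754353-4754423: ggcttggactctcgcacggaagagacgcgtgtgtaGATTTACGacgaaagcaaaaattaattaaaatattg

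Each of these 7 stretches held CGTAAATC, read on the plus strand at hat-1 and T23F6.3 and as its complement GATTTACG at the other 5. The stretches of hmgs-1 and T23F6.3 are the whole interval between the 5′ ends, of 283 and 225 bp, and the others are parts of longer intervals. The peak between rpl-20 and Y17G9B.5 had a joined signal (called on the reads of both replicates together) of 1374, with 984 in replicate 1 and 390 in replicate 2. Here signal is the value that the authors' peak caller gave each region, on a scale that is not stated, so levels can be ranked within a list but not compared between replicates. At ubq-2 and frg-1 it was 1199, with 839 and 362 in the replicates, and at hat-1 and M03C11.3 it was 1148, with 817 and 338. These peaks ranked 2, 3 and 4 among all 542, and each replicate alone put them within its first 5 of the 542.

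The genes flanking those strongest peaks have unlike products. rpl-20 encodes a protein of the large ribosomal subunit, and its partner Y17G9B.5 is annotated as a mitochondrial homologue of an intermediate of Toll signalling. ubq-2 encodes ubiquitin fused to a ribosomal protein, hat-1 the catalytic subunit of a histone acetyltransferase of type B, and hmgs-1 the hydroxymethylglutaryl-CoA synthase of the mevalonate pathway. F25B4.4, which faces hmgs-1, is annotated as a subunit of Elongator, a complex that modifies transfer RNA. rbd-1 encodes an RNA-binding protein, ska-3 a protein of the spindle and kinetochore complex, rps-12 and rps-0 proteins of the small ribosomal subunit, cic-1 cyclin C of the Mediator kinase module, and strm-1 a sterol methyltransferase.

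Further down the 20 strongest shared peaks, the signal was 943 at hmgs-1 and F25B4.4 (676 and 264 in replicates 1 and 2), 765 at T23F6.3 and rbd-1 (545 and 218) and 757 at ska-3 and rps-12 (561 and 196). It was 667 at cic-1 and strm-1 (470 and 197), 587 at rps-0 and rbg-3 (451 and 139) and 582 at Y38E10A.33 and cox-10 (414 and 167). cox-10 encodes a farnesyltransferase in the synthesis of the haem of cytochrome oxidase. The pair abhd-11.2 and nsph-1.2 had 538, R05D3.8 and rfp-1 525, F55A11.1 and syx-5 497, mrps-7 and Y57G11C.3 465, and Y39B6A.3 and pph-5 451. Next came wapl-1 and htz-1 with 448, both coding for chromatin proteins (a cohesin release factor and the histone variant H2A.Z), and gmps-1 and cap-2 with 441. The weakest of the 20 lay at attf-3, F54C4.4 and mrpl-40, with a signal of 393. All 20 were in both replicates among the 31 strongest of the 542.

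Shared promoters held 236 of the 454 promoter peaks, which is 52.0% (95% Wilson interval 47.4 to 56.5, counting error only, since peaks are not replicates). Promoter windows covered 26.2% of the genome, and 10.3% of the base pairs in them lay in the windows of 2 or more genes. Since peaks lie close to genes, a nearer background is the point 148 bp upstream of each gene's outermost 5′ end, the median distance of a shared summit from its nearest end rounded down. That point lay in 2 or more windows for 22.4% of the 19973 protein-coding genes. It did so for 65.1% of the 694 genes at any promoter peak, a share in which each shared peak counts all its genes.

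On chromosomes I, II, III, IV and V, shared peaks made up 54.5%, 48.4%, 61.1%, 53.2% and 53.8% of the promoter peaks. On X the share was 12.5% (3 of 24, interval 4.34 to 31.0). The gene map differs in the same way: the point 148 bp upstream lay in 2 or more windows for 9.45% of genes on X and for 21.5% to 27.5% of genes on the autosomes. The peaks on X lay at rga-8 and Y34B4A.2 with a signal of 199.98, at glr-6 and asg-2 with 49.96, and at C27C12.1 and C27C12.4 with 42.3. glr-6 is a subunit of a glutamate receptor and asg-2 a subunit of mitochondrial ATP synthase.

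Most pairs under a shared peak were divergent. Of the 223 peaks with 2 genes, 204 (91.5%, interval 87.1 to 94.5) lay at genes that point away from each other, 18 (8.07%) at genes on the same strand, and 1 at genes whose 5′ ends overlap head to head. Among base pairs of the genome that lie in exactly 2 promoter windows, 85.7% were in divergent, 13.8% in same-strand and 0.558% in overlapping arrangements. At the upstream point of each gene the same shares were 89.4% divergent (3799 of 4248), 425 of 4248 on the same strand and 24 overlapping, so the shares among peaks lay near those of the layout itself. The overlapping pair was Y54E10BR.2 and rpb-7, a subunit of RNA polymerase II, with a signal of 49.5 and the summit 9 bp upstream of rpb-7 and 12 bp downstream of the other end.

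At divergent pairs the summit lay between the 5′ ends in 193 of 204 cases (94.6%, interval 90.6 to 97.0). The rule favours this position, since it admits a summit up to 1000 bp upstream but only 200 bp downstream of each end. It also caps the spacing and holds the summits of wide pairs away from the ends. The position and spacing are therefore descriptions of the members, with no share from the layout set beside them. The ends were 467.5 bp apart at the median (quartiles 302.75 and 732, range 20 to 1659). From the summit, the nearer end lay 155 bp away and the farther end 310 bp away at the median. Measured from the minus-strand to the plus-strand end, the summit stood 50.9% of the way at the median, and 127 of 193 summits lay between 25% and 75% of the way. The plus-strand end was the nearer one in 105 of 204 cases, so neither strand was favoured by more than counting error (51.5%, interval 44.6 to 58.2).

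**Figure D1:**
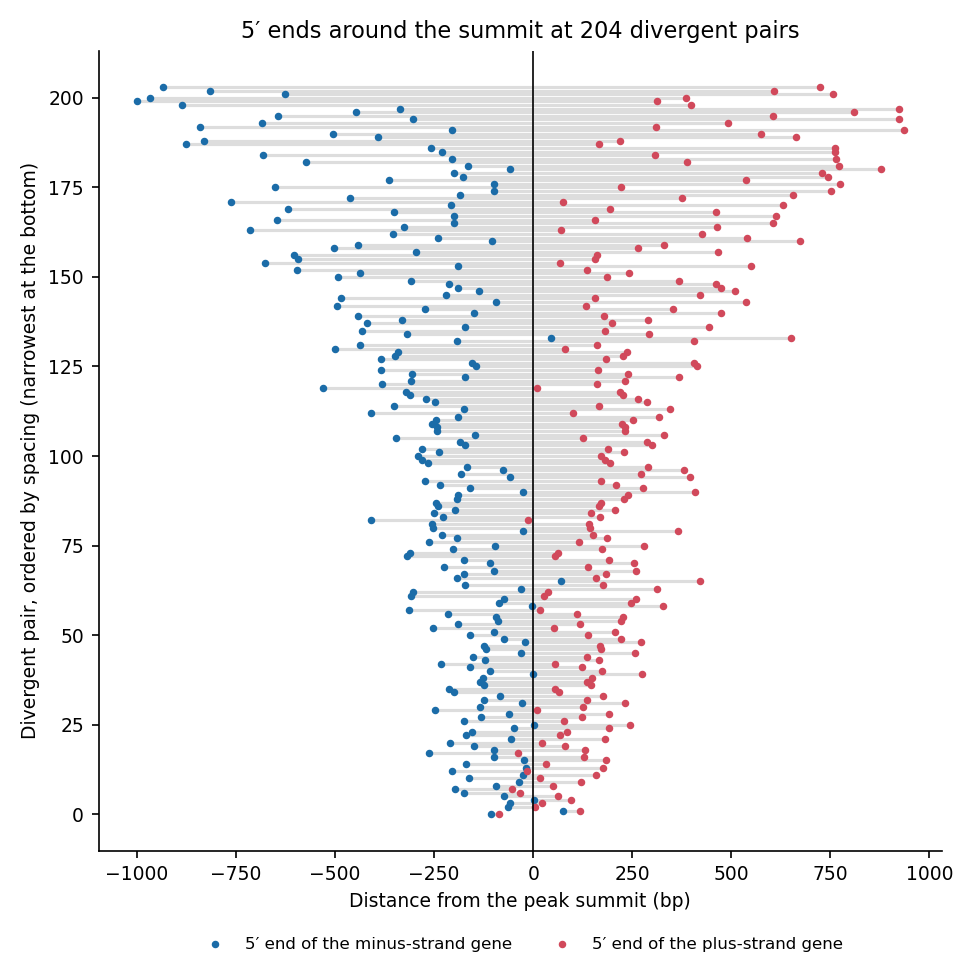
Each row is a divergent pair under a shared peak, ordered by spacing, with the peak summit at 0 on the horizontal axis (bp) and a grey line joining the 5′ ends of the minus-strand gene (blue) and the plus-strand gene (red). In 193 of the 204 rows the summit falls on the line, with blue points to its left and red points to its right.

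Peak regions are about as wide as many of these intervals, and 105 of the 204 contained neither 5′ end, 85 contained 1 and 14 contained both. At 71 pairs both ends were within 250 bp of the summit, and at 153 both were within 500 bp. The closest pairs were Y59E9AL.36 and nbet-1, with 20 bp between the ends, cdt-2 and T01C3.2 (42 bp), gei-14 and slc-25A32 (67 bp), K07B1.7 and try-5 (82 bp), and ears-2 and uncp-18 (92 bp). Their signals were 184, 203, 207, 252 and 59.3. The summit lay beside the interval rather than in it at the pairs of nbet-1, cdt-2 and ears-2. nbet-1 is the homologue of a protein of vesicle traffic, cdt-2 of a substrate receptor of a ubiquitin ligase, and slc-25A32 of a mitochondrial folate carrier.

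The widest pairs were mif-4 and ipla-6 (1659 bp), nhl-2 and tag-340 (1423 bp), F40F11.3 and mig-38 (1382 bp), nrde-2 and atad-3 (1353 bp) and nasp-2 and C50B6.3 (1313 bp). Their signals were 51.9, 114.6, 40.9, 64.2 and 43.2. Median signal by spacing was 87.4 for 26 pairs up to 250 bp apart, 84.1 for 85 pairs up to 500 bp, 71.2 for 75 pairs up to 1000 bp and 65.1 for 18 wider pairs. Replicate 1 gave 59.5, 63.2, 56.5 and 54.9 for these classes, and replicate 2 gave 26.5, 24.5, 19.97 and 29.9, so the order in the joined list was not that of either replicate.

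Not every divergent pair carried a peak. The genome held 2560 neighbouring divergent pairs whose outermost 5′ ends are at most 2000 bp apart, and 207 of them (8.09%) had an IDR summit between the ends. The share was 3.704% (2 of 54) up to 100 bp, 3.09% (6 of 194) over 100 and up to 200 bp and 12.7% (33 of 260) up to 300 bp. It was 15.9% (34 of 214) up to 400 bp, 14.4% (28 of 195) up to 500 bp and 9.01% (43 of 477) up to 750 bp. Beyond that it was 7.12%, 4.91% and 3.68% up to 1000, 1500 and 2000 bp. Per megabase of DNA between the ends the order differed. The number of summits was 670.02 up to 100 bp (from 2 pairs) and 199.9 over 100 and up to 200 bp (from 6 pairs). It was 507 over 200 and up to 300 bp, 451 up to 400 bp, 319 up to 500 bp and 21.03 over 1500 and up to 2000 bp. Pairs with a summit were 508 bp apart at the median, against 678 bp for all pairs. Of the 207 pairs, 204 had a single IDR summit between the ends and 3 had more, and 15 had a further candidate summit of the joined reads.

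**Figure D2:**
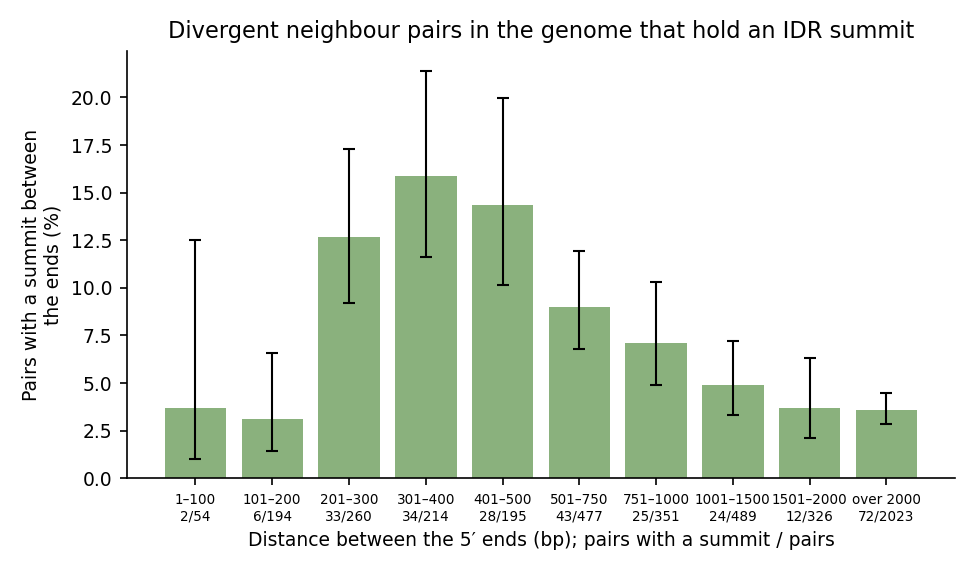
Bars give the percent of divergent neighbour pairs in the genome with an IDR summit between their outermost 5′ ends, by the distance between the ends in bp, with 95% Wilson intervals and the counts under each bar. The share is 15.9% over 300 and up to 400 bp and 3.68% over 1500 and up to 2000 bp.

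One interval held a pair of IDR peaks under the rule used here: ecps-1 and atx-2 were reached by a summit 208 bp from ecps-1 with a signal of 62.8 and by another 75 bp from atx-2 with a signal of 49.3. ecps-1 is annotated as a homologue of the proteasome factor Ecm29, and atx-2 encodes ataxin-2, an RNA-binding protein. Replicates 1 and 2 gave 40.6 and 22.9 for the former peak and 31.2 and 14.6 for the latter. These were the only genes at 2 shared peaks.

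Same-strand pairs had their summit upstream of both 5′ ends used in 18 of 18 cases. The rule favours this position too, since it admits a summit up to 1000 bp upstream but only 200 bp downstream of an end. The end used for each gene was the one nearest the summit, so other ends farther upstream were not considered. In the 18 pairs the ends were 558.5 bp apart at the median (range 24 to 861), with 12 pairs over 500 bp and 5 pairs under 250 bp apart. The strongest was rpl-29 and thoc-7, a large-subunit ribosomal protein followed by a subunit of the THO complex of mRNA export, with a signal of 592 (408 and 186 in the replicates) and the summit 299 bp and 808 bp upstream. swp-1 and rpl-23 had 513 (349 and 159), K01D12.20 and miga-1 255 (195 and 56.5), R05H5.4 and arv-1 165 (131 and 36.0), and ddp-1 and ttc-7 128 (95.2 and 35.5). ddp-1 encodes a small chaperone of mitochondrial import. The median signal of the 18 was 97.7, against 77.0 for divergent pairs. Whether such a pair shares a promoter or the farther gene has its own could not be read from peak positions.

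All 13 peaks with 3 genes had 2 genes on one strand and 1 on the other. The strongest lay at Y54F10AM.15, rbc-2 and ndua-8, with a signal of 1140 (831 and 313 in the replicates), and ndua-8 encodes a subunit of respiratory complex I. The peak at attf-3, F54C4.4 and mrpl-40 had 393 (272 and 122). npp-9, F59A2.5 and golg-4 had 174 (127 and 50.7), rpl-39, rps-30 and C26F1.3 had 88.1 (63.0 and 24.0), and cux-7, C07H6.2 and lig-4 had 82.1 (54.7 and 24.9). npp-9 is a nuclear pore protein and lig-4 a DNA ligase of end joining. The remaining 8 had signals from 39.8 to 67.2: Y39A1A.21 with Y39A1A.22 and mrpl-12, Y71H2AM.20 with cox-6B and nduc-2, rps-14 with rpl-36 and ndab-2, W02H5.16 with W02H5.19 and W02H5.2, rab-18 with kbp-4 and par-2, nuo-3 with arl-8 and a gene annotated as protein BRICK1, mdt-6 with Y57E12AL.6 and Y57E12AL.1, and mics-1 with erh-1 and lpd-9. In rpl-39 with rps-30 and in rps-14 with rpl-36, a large-subunit and a small-subunit ribosomal protein gene faced away from each other across the summit.

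Shared peaks were slightly stronger than 1-gene peaks at the median. The joined signal was 77.0 over 236 shared peaks (quartiles 52.5 and 167), 71.2 over 218 1-gene peaks (50.6 and 122) and 54.4 over 88 peaks outside windows. In replicate 1 the medians were 58.1, 53.7 and 38.0, and in replicate 2 they were 23.6, 19.1 and 17.9. The ratio of shared to 1-gene medians was 1.08 in replicate 1 and 1.24 in replicate 2 (mean 1.16 ± 0.111, SD, n = 2), and 1.08 in the joined list. The difference between the replicates' ratios was thus larger than the excess over 1 in replicate 1. The quartiles of both classes overlapped over most of their length. Among the strongest 20 of all peaks 15 were shared (interval 53.1 to 88.8%). Among the strongest 50 there were 29 (44.2 to 70.6%), and among the strongest 100 there were 57 (47.2 to 66.3%). Over all IDR peaks the share was 43.5% (236 of 542), below each of these intervals. The sets are nested, and the intervals give counting error only.

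**Figure D3:**
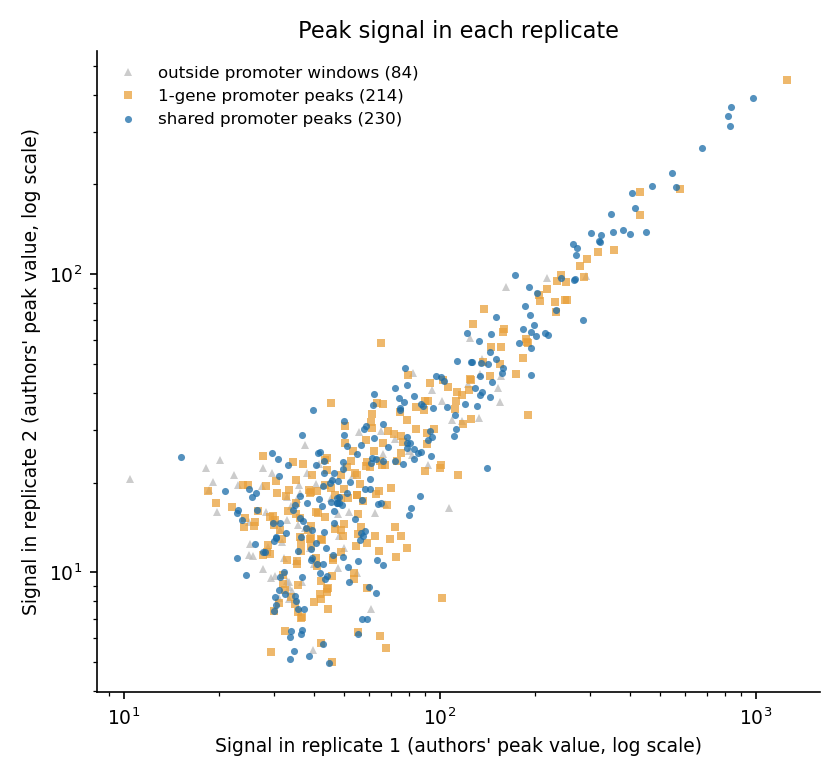
Each point is an IDR peak with a matched region in both replicates, placed by the authors' signal in replicate 1 and in replicate 2 on log axes, for shared promoter peaks (230), 1-gene promoter peaks (214) and peaks outside promoter windows (84). Shared and 1-gene peaks overlap over most of the range, while peaks outside windows reach 98.9 in replicate 2, below the 390 and 448 that shared and 1-gene peaks reach.

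Agreement between the replicates was described by rank. A peak was in the top of both replicates when its matched region ranked within the first 542 of each replicate's 30000 candidates. This held for 157 of 236 shared peaks (66.5%, interval 60.3 to 72.2), for 130 of 218 1-gene peaks (59.6%, 53.0 to 65.9) and for 43 of 88 peaks outside windows (48.9%, 38.7 to 59.1). Over all IDR peaks it was 60.9%, which lay in the intervals of both promoter classes and above that of peaks outside windows. By orientation it was 136 of 204 divergent peaks (66.7%) and 14 of 18 same-strand peaks (77.8%, 54.8 to 91.0). Replicate 1 had a candidate region at all 236 shared peaks, 222 of them in its first 542, and replicate 2 at 230, with 166 in its first 542. Where a region was matched, the replicate's own summit lay in the windows of 2 or more of the same genes in all but 1 of 236 cases in replicate 1 and in 229 of 230 in replicate 2. Its median offset from the joined summit was 3 bp and 12 bp. Such closeness is partly built in, because a matched region had to overlap the peak and the joined reads include those of each replicate.

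The 6 shared peaks with no region in replicate 2 lay at nrde-2 and atad-3, slc-25A42 and cfim-1, F27D4.7 and F27D4.4, nasp-2 and C50B6.3, Y48B6A.1 and rpl-43, and mpdu-1 and F38E1.6. Their joined signals ran from 39.9 to 64.2, and their replicate 1 signals from 32.0 to 54.4. The rank within the 542 peaks differed most between the replicates at nars-1 and nduf-6 (rank 541 in replicate 1 and 208 in replicate 2), followed by fipr-17 and Y48A6B.3 (491 and 199). The third was W04B5.5 and W04B5.3 (rank 509 in replicate 2, with signals of 59.1 in replicate 1 and 6.98 in replicate 2), then F29B9.11 and jmjd-1.2 (217 and 485) and vps-22 and C27F2.9 (247 and 510). None of these had a joined signal above 67.6. The 5 weakest shared peaks, with signals from 39.3 to 39.6, lay at pcmd-1 and dhhc-7, gcy-33 and cpr-9, hpo-9 and hyls-1, nars-1 and nduf-6, and pqn-51 and K11D12.14.

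Genes at shared peaks included many with roles in protein synthesis. A gene was counted at a shared peak also where its partner's end lay nearer the summit. Of all protein-coding genes, 2.42% were at a shared peak. Of 83 genes for cytosolic ribosomal proteins, 32 (38.6%) were, 14 more were at a 1-gene peak alone and 37 were at no IDR peak. Since the IDR peaks had been seen to favour such genes before this list was used, its share is a description. The share of its peak-bearing genes that were at a shared peak was 69.6%, the same as over all genes at promoter peaks (483 of 694, 69.6%). In the layout of the genome, the point 148 bp upstream lay in 2 or more windows for 65.1% of the 83 genes.

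The peak was not always closer to the ribosomal protein gene. At 25 divergent pairs with 1 such gene, the summit was nearer to the partner in 17 and nearer to the ribosomal protein gene in 8. It lay 290 bp from the ribosomal end and 177 bp from the partner's end at the median. The strongest of these were the peaks at rpl-20, ubq-2, rps-12 and rps-0. Others were rpl-15 and K11H12.8 with a signal of 389, aps-3 and rpl-17 with 260, rpl-28 and mrpl-49 with 185, ifet-1 and rps-1 with 176, and rpl-12 and lin-54 with 146. ifet-1 encodes a translational repressor and lin-54 a DNA-binding subunit of the DRM transcription complex. At rpl-12 the summit lay 27 bp from the ribosomal end and 366 bp from lin-54, and at ifet-1 and rps-1 it lay 265 bp from rps-1.

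Translation factors were at shared peaks in 8 of 46 cases (17.4%), against 2.42% of all genes. In the layout of the genome, the upstream point lay in 2 or more windows for 54.3% of them, against 22.4% of all genes. Of translation factor genes at promoter peaks, 66.7% were at a shared peak, against 69.6% over all genes at promoter peaks. eef-1A.1 and rfc-4, an elongation factor and a subunit of the clamp loader of DNA replication, had a signal of 165 (141 and 22.4 in the replicates). ifg-1, an initiation factor of the eIF4G family, had 143 with M110.3, and iff-2, an eIF5A, had 110 with F54C9.14. Further pairs of this list were clsp-1 and eef-2 with 99.9, and eef-1B.1 and aco-2, a mitochondrial aconitase of the citric acid cycle, with 71.0. Of aminoacyl-tRNA synthetases, 4 of 31 (12.9%) were at shared peaks, against 2.42% of all genes, and 0 at a 1-gene peak alone. For 38.7% of this list the upstream point lay in 2 or more windows. The 4 were fars-1 with rbm-5 at 341, ears-2, aars-1 with rga-1 at 43.3, and nars-1. At the strongest, the summit lay 877 bp from fars-1 and 165 bp from rbm-5.

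Mitochondrial genes were covered by several lists. In the layout of the genome, the upstream point lay in 2 or more windows for 56.8% of respiratory chain genes. It did so for 48.6% of mitochondrial ribosomal protein genes and 33.3% of import and upkeep genes, against 22.4% of all genes. Of the genes of these 3 lists at promoter peaks, 66.7%, 77.8% and 66.7% were at a shared peak, against 69.6% over all. These shares rest on few genes: 16, 7 and 6 at a shared peak and 8, 2 and 3 at a 1-gene peak alone. Of 74 respiratory chain genes, 16 (21.6%, against 2.42% of all genes) were at a shared peak and 8 at a 1-gene peak alone. ndua-8 and cox-10 were the strongest, followed by nuo-6 and tofu-5 with 174 and mcrs-1 and atp-1, the alpha subunit of ATP synthase, with 81.8. mev-1 and sdhb-1, both subunits of succinate dehydrogenase, faced jmjd-4 (signal 71.0) and cup-15 (62.3). Of mitochondrial ribosomal proteins 7 of 70 were at shared peaks, with mrps-7 at 465, mrpl-40 at 393, mrps-25 with Y55F3AM.13 at 266 and mrpl-49 at 185. Of the mitochondrial import and upkeep list it was 6 of 39 (15.4%), among them hsp-60, ddp-1, tomm-70 with sma-2 at 57.0 and clpp-1 with mdt-22 at 51.7.

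Chaperone genes were at shared peaks in 16 of 95 cases (16.8%), against 2.42% of all genes. In the layout of the genome, the upstream point lay in 2 or more windows for 46.3% of them, against 22.4% of all genes. Of chaperone genes at promoter peaks, 69.6% were at a shared peak, as over all genes at promoter peaks. pph-5, a phosphatase that works with Hsp90, was the strongest at 451, then cyn-4 and copz-1 at 389, cyn-15 and nyn-2 at 283, and cct-8 and Y55F3AR.2 at 260. The peak between Y22D7AL.10 and hsp-60 had a signal of 145 (111 and 28.7 in the replicates). These encode the mitochondrial chaperonins Hsp10 and Hsp60, which work as one complex. The ends lay 813 bp apart, with the summit 612 bp from hsp-60 and nearer to Y22D7AL.10. C47E8.4 and hsp-90 had 177 (134 and 45.5), and hsp-110 and rpn-3, a chaperone of the Hsp110 family and a proteasome subunit, had 99.9.

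Genes of chromatin, splicing and the proteasome were also at shared peaks. In the layout of the genome, the upstream point lay in 2 or more windows for 58.75%, 63.2% and 63.6% of these lists, against 22.4% of all genes. Of their genes at promoter peaks, 78.9%, 53.3% and 83.3% were at a shared peak, against 69.6% over all genes at promoter peaks. These shares rest on few genes: 15, 8 and 5 at a shared peak and 4, 7 and 1 at a 1-gene peak alone. Of 160 chromatin genes 15 (9.38%) were at shared peaks, against 2.42% of all genes. They were led by hat-1 and by wapl-1 with htz-1, then drr-2 with set-16 at 159. Genes of the splicing list, which also counts thoc-7 of the THO complex of mRNA export, numbered 8 of 76 (10.5%). The strongest peaks were that of thoc-7, with the summit 808 bp from its end, and luc-7L3 with sftb-6 at 366. The pair rsp-2 and rsp-1, both SR proteins of splicing, had 107 (87.0 and 18.1), and hrpf-2 with bli-6 had 77.3. Proteasome genes numbered 5 of 33 (15.2%): rpn-3, mrps-6 with rpn-8 at 96.5, rad-23 with rpn-12 at 67.6, rpn-5 with scc-1 at 47.4, and pas-7 with puf-12 at 40.7. The pair rad-23 and rpn-12 brings together a shuttle factor for ubiquitinated proteins and a lid subunit of the proteasome.

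**Figure D4:**
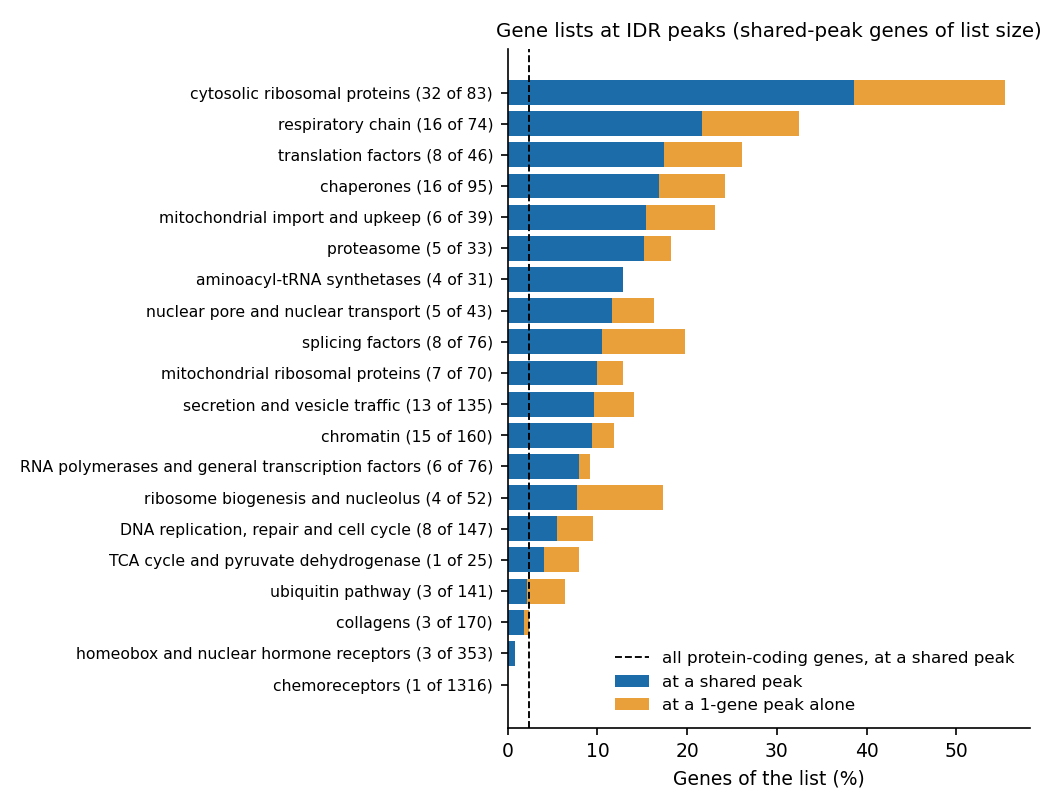
Bars give the percent of each gene list at a shared peak (blue) and, added to it, at a 1-gene peak alone (orange), with the number of genes at shared peaks and the list size beside each name. The dashed line marks the share of all protein-coding genes at a shared peak. The cytosolic ribosomal protein list reaches 38.6% at shared peaks and the chemoreceptor list 0.0760%.

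The remaining lists ranged from 2.13% for the ubiquitin pathway to 11.6% for nuclear pore and transport, against 2.42% of all genes. For the same lists the upstream point lay in 2 or more windows for 26.2% and 51.2% of genes, against 22.4% of all genes. Of genes at promoter peaks, 33.3% of the ubiquitin pathway and 44.4% of ribosome biogenesis were at a shared peak. For RNA polymerases and general transcription factors it was 85.7%, against 69.6% over all. These shares rest on few genes: in the order given, 3, 4 and 6 at a shared peak and 6, 5 and 1 at a 1-gene peak alone. Nuclear pore and transport genes were at shared peaks in 5 of 43 cases (dvc-1 with ima-1 at 257, npp-9, npp-3 with top-2 at 126, and R12C12.6 with ran-5 at 61.2 among them). Secretion and vesicle traffic genes were at 13 of 135 (rbg-3, syx-5, cyn-4 with copz-1, and aps-3 leading). Genes of RNA polymerases and general transcription factors were at 6 of 76 (cic-1, apb-1 with mdt-19 at 147, rpb-11 with W01G7.4 at 88.6, and clpp-1 with mdt-22). The summit between apb-1 and mdt-19 lay 762 bp from mdt-19 and 257 bp from apb-1. Ribosome biogenesis genes were at 4 of 52 (rbd-1, nol-6 with Y51H7C.3 at 243, fib-1 with mut-15 at 110, and zip-4 with nol-58 at 42.6). Replication, repair and cell cycle genes were at 8 of 147 (ska-3, rfc-4, cdk-5 with kel-3 at 89.0, and lig-4 leading). Of 141 ubiquitin pathway genes there were 3: ubq-2, rfp-1, and uba-5 with clec-53 at 47.7. aco-2 was the only one of 25 in the citric acid cycle list.

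Large families with tissue-restricted roles came last by share, against 2.42% of all genes. Of 1316 chemoreceptor genes 1 was at a shared peak (0.0760%), srh-16. Of 353 homeobox and nuclear hormone receptor genes there were 3 (0.850%): malt-1 with ceh-38 at 90.1, dnj-19 with nhr-47 at 60.3, and nhr-142 with F44E7.9 at 41.1. Of 170 collagen genes there were 3 (1.76%, near the overall share): col-8 with rfl-1 at 214, col-71 with Y49F6B.2 at 46.2, and col-38 with rpl-5 at 40.6. At the strongest of these the summit lay 886 bp from col-8 and 399 bp from rfl-1. In the layout of the genome, the upstream point lay in 2 or more windows for 13.8% of chemoreceptor genes, 9.92% of the homeobox and receptor list and 17.1% of collagens, against 22.4% of all genes. At a 1-gene peak alone were 0, 0 and 1 genes of these lists, so few had a promoter peak of either kind.

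Peaks with 2 or more list members numbered 29 of the 236, 104 peaks had 1 list member and 103 had none. Lists held 33.5% of the genes at shared peaks and 15.8% of all protein-coding genes. Same-list pairs were few: wapl-1 with htz-1, rsp-2 with rsp-1, rpl-39 with rps-30, rps-14 with rpl-36, and cox-6B with nduc-2, the last of which lie on the same strand. The other pairs across lists, beside those already given, were ddx-15 with ucr-1 at 76.4, mdf-2 with nduv-3 at 52.1, clu-1 with prp-40 at 44.4, rpl-7A with set-21 at 85.8, and nuo-3 with arl-8.

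The letters near the summit changed with signal. CGTAAATC, searched on both strands, occurred within 50 bp to each side of the summit at 66 of 236 shared peaks (27.97%, interval 22.6 to 34.01) and at 40 of 218 1-gene peaks (18.3%, 13.8 to 24.0). Outside promoter windows it was 7 of 88 (7.95%). It occurred in 0.751% of windows of that length centred 148 bp upstream of all 19973 genes, and in 0.424% of windows centred 300 bp to each side of the shared summits. Within 150 bp of the summits of the 204 divergent peaks its median distance from the summit was 24.5 bp, with 31 copies on the plus strand and 34 on the minus strand. Since such words were found earlier in these same peaks, their presence is a description and supports nothing further.

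Of the 50 strongest shared peaks 35 (70.0%) held CGTAAATC, of the next 50 there were 17, then 7, 3 and, among the last 36, 4. In the same steps of 50 the 1-gene peaks had 22, 11, 3 and 1, and 3 among the last 18. Ranks were taken within each class, so the same step need not hold peaks of like signal in both. On a common cut, the stronger 50% of all IDR peaks, the word was at 57 of 131 shared peaks (43.5%, interval 35.3 to 52.1). There it was at 33 of 113 1-gene peaks (29.2%, 21.6 to 38.2). Shared peaks with the word had a median joined signal of 195 (145 in replicate 1 and 50.5 in replicate 2), and those without it had 65.6 (49.2 and 17.8). For 1-gene peaks these medians were 149 with the word and 63.7 without it. A single copy was present at 56 divergent peaks, and in 26 of them it read on the strand of the gene whose end was nearer the summit, so its direction did not follow the nearer gene.

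**Figure D5:**
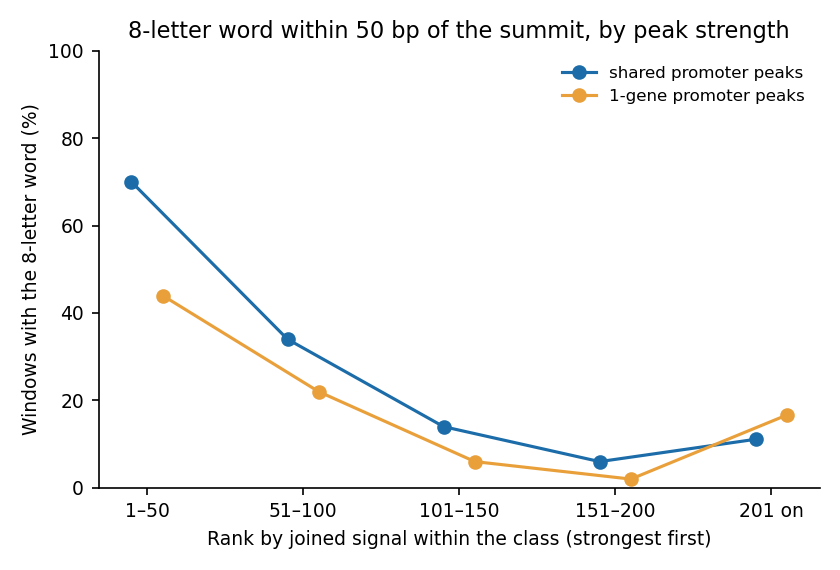
Points give the percent of peaks with the 8-letter word CGTAAATC within 50 bp to each side of the summit, for shared (blue) and 1-gene (orange) promoter peaks. Steps hold 50 peaks by rank of joined signal within each class, the last steps holding 36 and 18 peaks. The same step need not hold peaks of like signal in both classes. The share falls from 70.0% and 44.0% in the strongest step to 3 and 1 of 50 peaks in the step before the last. In the last, smaller step it is higher again, at 11.1% and 16.7%.

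The other words showed smaller differences. CGTAAA, which is contained in CGTAAATC, occurred at 33.9% of shared and 29.4% of 1-gene peaks, against 4.98% of all promoters. ACGCGC occurred at 19.5% and 24.8%, against 2.53%, and GACGCA at 16.9% and 19.3%, against 3.45%. At least 1 of the words was present at 58.5% of shared peaks (interval 52.1 to 64.6) and at 61.9% of 1-gene peaks (55.3 to 68.1), so the intervals overlapped, and 98 shared peaks had none. Mean GC content of the same windows was 45.4% ± 7.47 (SD over 236 peaks) at shared and 45.7% ± 7.60 (SD over 218 peaks) at 1-gene peaks.

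Membership depends on the window at its edge. At 9 of the 236 peaks the second gene lay over 900 bp from the summit, and 9 of the 1-gene peaks would be shared if the window reached 1100 bp upstream. Noncoding genes were not counted by the rule, but 31 shared peaks also lay in the window of a gene of the class ncRNA, 12 of a snoRNA, 4 of a piRNA, 3 of a miRNA and 2 of a tRNA gene, and 1 each of a snRNA and a lincRNA gene.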

How the data were processed

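The members, the gene lists and the words searched were chosen with earlier results of these data known. Per the labels, binding of eGFP-tagged R02D3.7 was measured by ChIP-seq in 2 biological replicates of L2 larvae, with fragments of 150 to 350 bp. The authors deposited peak lists, and the signal used here is the value their peak caller gave each region. The scale of the signal is not given in the sources used here. Nor are the caller and the aligner named there. Read depth per library is unknown, so no depth-based precision can be given. Per the notes deposited beside the files, candidate regions were derived from alignments and a control file that is not part of the analysis. Each candidate list holds 30000 regions, and the irreproducible discovery rate set kept 542 regions of the joined reads.

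Lists on ce11 were used, and those on ce10 were not used here. Genes came from Ensembl release 115 on WBcel235 (29784 5′ ends of 19973 protein-coding genes on the nuclear chromosomes), and sequence and product names from RefSeq on the same assembly. For each gene the 5′ end nearest the summit was taken. A replicate's region was matched to a peak if they overlapped by 1 bp or more, and among several the one with the closest summit was taken. Shares carry 95% Wilson intervals. With 1 group, no test was made. Python 3.11.15, numpy 2.4.6, pandas 2.3.3 and matplotlib 3.10.9 were used, and the assignment of summits to genes was tested on simulated data.

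Named genes are those at the 20 strongest and 5 weakest shared peaks, the 5 strongest of each orientation, all 3-gene peaks, the 5 closest and 5 widest divergent pairs, the 4 strongest peaks of each list, pairs with both genes in lists, the 5 peaks whose ranks differ most between replicates, those lacking a replicate, and R02D3.7. The pair at 2 peaks, the pairs on X and a few further list members were chosen once their values were known. Results were recomputed with other promoter windows, 1 5′ end per gene, stricter peak sets, each replicate alone, genes of every biotype, autosomes alone and other word windows. A stretch of sequence and a gene are not reported here.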

Additional observations from a re-analysis of the deposited data

How the results depend on the processing

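No paired analysis was possible because there is 1 group and no result comes from a test. Of 52 alternative values, 31 stayed within the spread or interval of the main value and 21 moved. With windows of 500 bp upstream and 100 bp downstream, the share of promoter peaks that are shared was 40.1%, that of divergent pairs 95.9% and the median spacing 377 bp. With 2000 bp upstream these were 64.0%, 82.3% and 563.5 bp, and the signal ratio was 1.21. With genes of every biotype, 61.4% of promoter peaks were shared. With 1 5′ end per gene the spacing was 459 bp. In the stronger 50% of peaks the spacing was 449 bp, the ratio 1.21, the share ranked in the top by both replicates 96.2%, and the share with a word 67.9%. Among peaks that both replicates rank in their top the last was 65.6% and the spacing 455.5 bp. Their own share in that top is fixed by the choice. With 25 and 100 bp to each side of the summit, the share with a word was 33.5% and 67.4%. Leaving out each replicate gave spacings of 461.5 and 462 bp, ratios of 1.09 and 1.34, and shares in the top of both replicates of 67.5% and 88.2%, the higher ratio and share without replicate 1. These shares were taken over 234 and 178 peaks. Being in the top of both still uses the replicate left out, so they give no check with that replicate removed. The spacing was judged against the spread between the replicates' own medians, which was under 1 bp. The share with the summit between the ends moved under none of the 7 alternatives tried, from 92.0% to 94.7%. Every window tried reaches farther upstream than downstream and so favours such summits. Membership depends on the window, the gene set and the 5′ ends used, and the unknown depth limits how replicate 2, with lower signals, can be read. The cause of the other shifts was not tested.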
